A study of Arabidopsis thaliana with 6 samples.

Results

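SHT, DFR and UGT78D2 are 3 *Arabidopsis thaliana* genes of phenolic metabolism, and their transcript levels were compared between anthers of *myb80* mutant and wild-type plants. They were taken by symbol from the probe annotation of the array. Each had 1 probe set of its own, and the 3 genes are among 13350 with such a probe set. MYB80 is a transcription factor of the tapetum, the anther cell layer that feeds the microspores. Each genotype had 3 arrays. The mutant arrays are labelled 1, 4 and 5-2, those of wild type are labelled 2, 5 and 6, and values are given in that order throughout. The labels name no mutant allele, no background accession and no difference in growth between the genotypes, and do not say what 5-2 stands for. By the labels, RNA of each replicate came from about 1000 dissected anthers of stages 5 to 8, and the stages were not checked here. Such anthers hold several cell types. In such bulk samples fewer cells of a type and less RNA per cell cannot be told apart.

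Pollen grains are coated with phenolic compounds that the tapetum makes and releases. One class is the flavonols, which are built from chalcones and made soluble by sugars that UDP-glycosyltransferases attach. The other class is the phenolamides, in which acyltransferases of the BAHD family join hydroxycinnamic acids to spermidine. SHT (AT2G19070) is the spermidine hydroxycinnamoyl transferase of the tapetum. UGT78D2 (AT5G17050) attaches glucose to the 3-hydroxyl group of flavonols and anthocyanidins. DFR (AT5G42800), dihydroflavonol 4-reductase, reduces dihydroflavonols, the shared precursors, on the branch that leads to anthocyanins and proanthocyanidins rather than to flavonols.

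Of the 3 genes, UGT78D2 fell to 35.2% of its wild-type level in the mutant. SHT stood at 75.4% and DFR at 65.9% of wild type, and neither passed the test. All values are array intensities in arbitrary units, scaled so that the arrays share a median, with values under a floor of 16 raised to it. The filtered test was limma with Benjamini-Hochberg adjustment over the 15164 probe sets left when the dimmest 1 in 3 are left out. Genes are said to have risen or fallen at adjusted p under 0.05 in it. It called 0.448% of these probe sets higher and 1.6% lower in the mutant. The same test over all 22746 probe sets, with the dim ones kept, called 1 higher and 2 lower (0.0044% and 0.00879%), and none of the 3 genes, of which UGT78D2 alone had an unadjusted p under 0.05.

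The arrays resembled each other, with Pearson's r of log2 intensity across probe sets from 0.911 to 0.948 within a genotype and from 0.880 to 0.919 between them. No probe set carries MYB80 in the annotation used here, so the labels were not checked on the mutated gene. Tapetal transcripts were present on every array, as the anther label implies: the 8 measured probe sets of a tapetal product list summed to between 54740 and 63410 on wild-type arrays and between 77300 and 106800 on mutant arrays. Of these 8 probe sets 3 rose, 1 fell and 4 did not pass, where 0.448% of all filtered probe sets rose and 1.6% fell. The one that fell was UND, an aspartic protease gene.

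UGT78D2 was lower on every mutant array than on any wild-type array. The mutant arrays read 206, 163 and 192. The wild-type arrays read 452, 499 and 657. The groups were well apart: the lowest wild-type array stood above the highest mutant array by more than either group's own range on the log2 scale of the plot of intensities. Over all probe sets of the filtered test, 8.9% had groups that did not overlap and were lower in the mutant.

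The geometric mean of UGT78D2 was 186 in the mutant (SD 0.17 on the log2 scale, n = 3) and 529 in wild type (SD 0.28, n = 3), a 2.84-fold difference. The log2 difference was -1.51 ± 0.27 (SE, limma 95% interval from -2.11 to -0.90, adjusted p = 0.0295 in the filtered test). The interval places the mutant between 23.1% and 53.6% of wild type. The test over all 22746 probe sets gave the same difference with an adjusted p of 0.123. An exact two-sided permutation test gave p = 0.1, the smallest that 3 arrays against 3 allow.

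The size of the UGT78D2 difference moved little when single arrays were left out, from -1.62 to -1.35, but its call did not hold. It passed the filtered test without mutant replicate 4 (limma adjusted p = 0.039). The adjusted p was 0.063 without mutant replicate 1 and 0.101 without mutant replicate 5-2. Without wild-type replicates 2, 5 and 6 it was 0.0774, 0.105 and 0.0949.

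**Figure D1:**
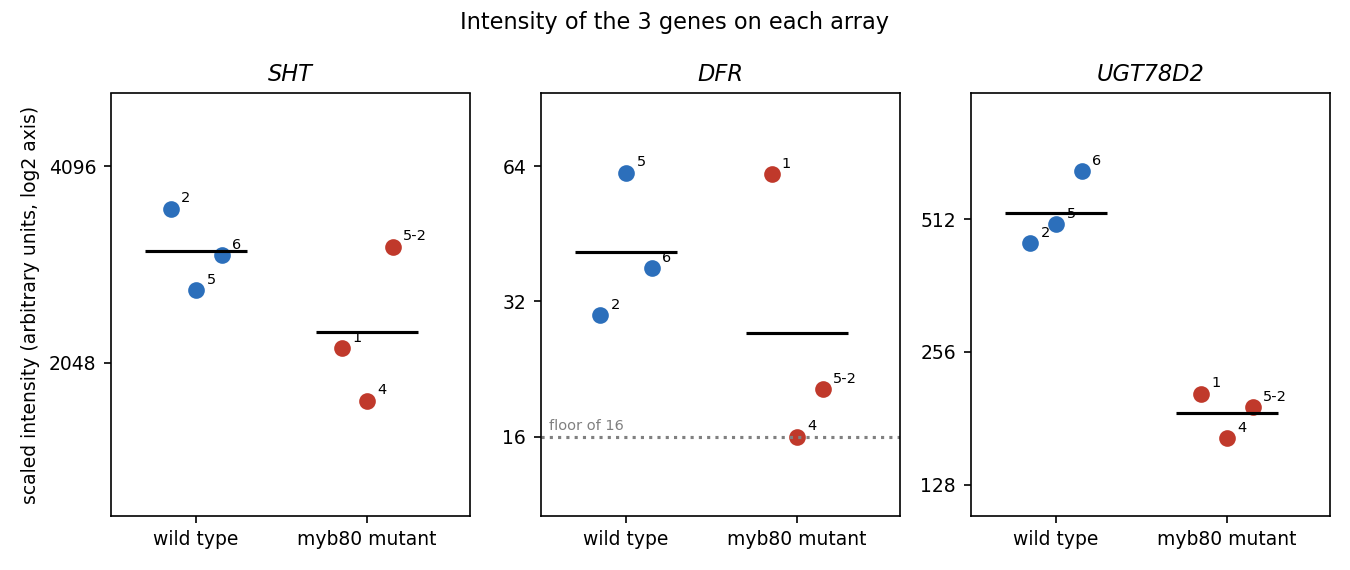
Scaled intensity in arbitrary units, on a log2 axis, of SHT, DFR and UGT78D2 on each of the 6 arrays; points are arrays with their replicate names and bars are geometric means. The 3 mutant arrays lie below the 3 wild-type arrays for UGT78D2, while the groups overlap for SHT and for DFR.

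UGT78D2 lies beside 2 relatives in the genome, and RefSeq's TAIR10.1 annotation has UGT78D3, AT5G17040 and UGT78D2 in direct succession. UGT78D3, which attaches arabinose to flavonols, was at the floor on all 6 arrays. AT5G17040 was at or near the floor, from 16 to 21.1, and had a log2 difference of -0.21 ± 0.13 (SE, limma adjusted p = 0.695 over all probe sets). UGT78D1, a flavonol 3-O-rhamnosyltransferase encoded elsewhere, read 162, 104 and 270 on the mutant arrays and 193, 180 and 138 on those of wild type. The groups overlapped, and its log2 difference was -0.03 ± 0.37 (95% interval from -0.85 to 0.80, limma adjusted p = 0.992). The direction of this small difference changed with the scaling, to 0.01 on the values as deposited. UGT78D1 was named after its values were seen.

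SHT was bright on every array, and its groups overlapped. The mutant arrays read 2160, 1793 and 3086. Those of wild type read 3528, 2646 and 2992. Mutant replicates 1 and 4 lay below all wild-type arrays, and mutant replicate 5-2 lay above wild-type replicates 5 and 6. On the values as deposited, mutant replicate 5-2 (2748) lay above wild-type replicate 5 (2645) but below wild-type replicate 6 (3020).

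The geometric mean of SHT was 2286 in the mutant (SD 0.40 on the log2 scale, n = 3) and 3034 in wild type (SD 0.21, n = 3). The log2 difference was -0.41 ± 0.29 (SE, limma 95% interval from -1.07 to 0.25, adjusted p = 0.667). The mutant level thus lay between 47.7% and 119% of wild type. The estimate for UGT78D2, 35.2%, lies outside this interval, whereas a smaller fall or a small rise lies within it. The interval of UGT78D2 itself reached 53.6%, so the intervals of the genes overlap. The exact permutation test of SHT gave p = 0.3. Without mutant replicate 5-2 the log2 difference of SHT was -0.62, with a limma adjusted p of 0.427, and without mutant replicate 4 it was -0.23.

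DFR was dim, and read 61.5, 16 and 20.4 on the mutant arrays, where the value of 16 is the floor. On the wild-type arrays it read 29.8, 62.0 and 37.9. Mutant replicates 4 and 5-2 lay below all wild-type arrays, and mutant replicate 1 lay above wild-type replicates 2 and 6. On the values as deposited, mutant replicate 1 (64.2) lay above wild-type replicate 5 (62.0) as well.

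DFR's geometric mean over the 6 arrays, 33.5, fell just under the dimmest probe set that the filter kept, at 34.4, so DFR was tested with all 22746 probe sets. The geometric mean was 27.2 in the mutant (SD 1.03 on the log2 scale, n = 3) and 41.2 in wild type (SD 0.54, n = 3). The log2 difference was -0.60 ± 0.62 (SE, limma 95% interval from -2.22 to 1.02, adjusted p = 0.798). The interval spans 21.4% to 203% of wild type, so neither a large fall nor a rise lies outside it. A filter that left out the dimmest 1 in 4, tried after the data were seen, kept DFR and gave an adjusted p of 0.752. The exact permutation test gave p = 0.4. Without mutant replicate 1 the log2 difference was -1.19 and without mutant replicate 4 it was -0.22, neither past the threshold (adjusted p = 0.555 and 0.978).

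The differences of the 3 genes were also set against each other within each array, in 3 pairs. The log2 difference of UGT78D2 minus that of SHT was -1.10. On the mutant arrays the contrast lay between -1.49 and -0.87 relative to its wild-type mean, and no mutant array overlapped a wild-type array. The exact permutation test of this contrast gave p = 0.1, the smallest possible, and 0.3 after Benjamini-Hochberg adjustment over the 3 pairs. The contrast of UGT78D2 with DFR was -0.91 (exact p = 0.3, adjusted 0.45), and that of SHT with DFR was 0.19 (exact p = 0.8, adjusted 0.8). With 3 arrays a group these pairs cannot pass a threshold of 0.05.

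The other genes of flavonoid and phenolamide metabolism were taken from 8 lists that hold 127 genes with the 3 above. Probe sets of 1 gene covered 29 of them, 1 further probe set was shared by a pair of genes, and the remaining genes were not analysed here, among them all 21 flavonoid regulators and all 9 tapetal polyketide genes of the lists. Of the 30 probe sets 18 passed the filter, which uses the mean over both genotypes. Among these 18, 3 fell, none rose and 15 did not pass, where 1.6% of all filtered probe sets fell. The 3 were UGT78D2, AT5G54010 and AT5G28470. Without the 3 genes the count was 2 of 16. The median log2 difference of the 18 was -0.43, and -0.34 without the 3 genes, beside 0.04 over all 15164 probe sets. In 8 of the 18 the groups did not overlap and the mutant was lower, and in none was it higher. All filtered probe sets gave 8.9% and 8.38%. Without the 3 genes, 7 of 16 did not overlap and were lower. In the test over all 22746 probe sets limma called none of the 30, and 8 had an unadjusted p under 0.05, all lower in the mutant.

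**Figure D2:**
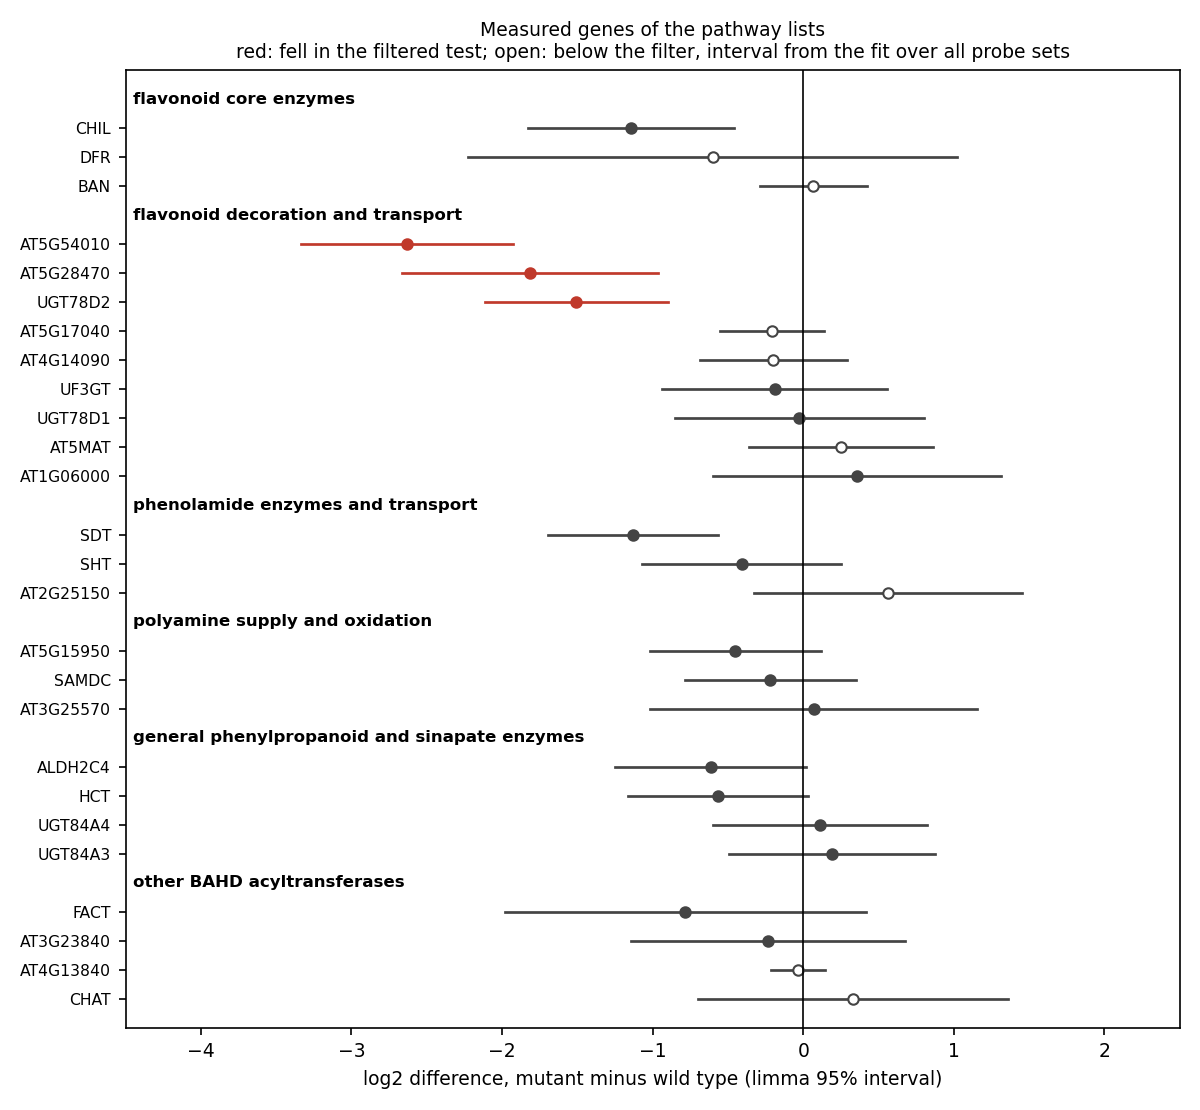
Log2 difference between mutant and wild type with limma's 95% interval for each measured gene of the pathway lists that had a probe set of its own and was above the floor on at least 1 array; red marks the 3 genes that fell in the filtered test and open points mark genes below the filter. AT5G54010, AT5G28470 and UGT78D2 lie furthest to the left, and SHT and DFR have intervals that include 0.

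Of the measured genes of the lists, AT5G54010 had the largest difference. AT5G54010, which RefSeq lists as UGT79B6, is known as the glycosyltransferase that extends flavonol 3-O-glucosides of pollen by another glucose. It read 79.5, 158 and 122 on the mutant arrays and 644, 813 and 691 on those of wild type. Every mutant array was well below every wild-type array. It fell 6.19-fold, with a log2 difference of -2.63 ± 0.31 (SE of limma over n = 3 arrays a genotype). The adjusted p was 0.00696 in the filtered test and 0.118 over all probe sets. Whichever of the 6 arrays was dropped, AT5G54010 still passed the filtered test (limma adjusted p between 0.00211 and 0.0441).

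AT5G28470, a locus of the decoration and transport list to which the gene tables give no symbol, read 271, 765 and 371 on the mutant arrays. On the wild-type arrays it read 1594, 1516 and 1386. Mutant replicate 4 lay closest to wild type, but the groups did not overlap. It fell 3.52-fold in the filtered test, by -1.82 ± 0.38 on the log2 scale (limma adjusted p = 0.0454). This call held without mutant replicate 4 (adjusted p = 0.00439) and was lost without mutant replicates 1 and 5-2 (0.12 and 0.161) and without wild-type replicates 2, 5 and 6 (0.162, 0.166 and 0.113). It was also lost on the values as deposited (0.0903), after quantile normalization (0.108), with no floor (0.0826), with the dimmest 1 in 4 left out (0.0591) and over all probe sets (0.271). Of the other flavonoid decoration genes, AT1G06000 had a log2 difference of 0.36 ± 0.42 (adjusted p = 0.83). AT4G14090 was above the floor only in wild-type replicate 6, at 24.2, and AT5MAT, an anthocyanin malonyltransferase gene, only in mutant replicate 4, at 26.9.

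In the core of the flavonoid pathway, CHIL, a chalcone isomerase-like protein that aids chalcone synthesis, read 215, 148 and 203 on the mutant arrays. The wild-type arrays read 299, 466 and 495, above every mutant array. The log2 difference of CHIL was -1.14 ± 0.30 (95% interval from -1.83 to -0.46), short of the threshold (limma adjusted p = 0.107). BAN, anthocyanidin reductase, acts after DFR on the way to proanthocyanidins. It was at the floor on 4 of 6 arrays and reached 20.9 at most.

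Among the phenolamide genes, SDT, the spermidine disinapoyl acyltransferase and a BAHD relative of SHT known from seeds, was lower on all mutant arrays. The mutant arrays read 304, 267 and 274 and the wild-type arrays 690, 554 and 611. The spread within each genotype was small beside the gap between them. The log2 difference of SDT was -1.13 ± 0.25 (95% interval from -1.69 to -0.57), just outside the threshold (limma adjusted p = 0.0571 in the filtered test and 0.109 over all probe sets). AT2G25150, dimmer than the filter, ran from 34.6 to 50.9 in the mutant and from 19.2 to 41.9 in wild type (log2 difference 0.56 ± 0.34, adjusted p = 0.677 over all probe sets). AT3G23550 was at the floor on all 6 arrays.

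Spermidine, the amine that SHT acylates, is made with aminopropyl groups that S-adenosylmethionine decarboxylase supplies. SAMDC, a gene of that enzyme but not the only one, was bright and overlapped between the genotypes, from 9412 to 11110 in the mutant and from 10830 to 13340 in wild type. Its log2 difference was -0.22 ± 0.25 (95% interval from -0.79 to 0.35, limma adjusted p = 0.824). AT5G15950 ran from 481 to 593 in the mutant and from 677 to 810 in wild type, without overlap, but did not pass (log2 difference -0.45 ± 0.25, adjusted p = 0.546). AT3G25570 overlapped and had a log2 difference of 0.07 ± 0.48 (adjusted p = 0.983).

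Hydroxycinnamoyl and sinapoyl groups come from the general phenylpropanoid pathway, where 5 of 26 listed genes were measured and none was called. HCT, which transfers hydroxycinnamoyl groups to shikimate, ran from 248 to 369 in the mutant and from 440 to 480 in wild type. Its groups did not overlap, and the log2 difference was -0.57 ± 0.27 (limma adjusted p = 0.437). ALDH2C4, an aldehyde dehydrogenase that makes ferulate and sinapate, ran from 385 to 438 in the mutant and from 467 to 749 in wild type (-0.62 ± 0.28, adjusted p = 0.423). The hydroxycinnamate glucosyltransferase genes UGT84A3 and UGT84A4 overlapped, with log2 differences of 0.19 ± 0.30 and 0.11 ± 0.32 (adjusted p = 0.884 and 0.947), and UGT84A1 was at the floor on all 6 arrays.

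None of the 4 measured genes among the other BAHD acyltransferases was called. AT3G23840, listed by RefSeq as CER26-LIKE, ran from 1170 to 2250 in the mutant and from 1028 to 2595 in wild type (log2 difference -0.24 ± 0.41, limma adjusted p = 0.896). FACT, which esterifies fatty alcohols with caffeate, had a log2 difference of -0.78 ± 0.53 (adjusted p = 0.64). AT4G13840, listed as CER26, and CHAT, a hexenol acetyltransferase gene, lay below the filter, with log2 differences of -0.04 ± 0.07 and 0.33 ± 0.39 over all probe sets (adjusted p = 0.937 and 0.83).

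Markers of cells that anther samples can hold were read on the same arrays. Among the filtered probe sets, 4 of 10 microspore and pollen markers fell, where 1.6% of all filtered probe sets fell. In all 10 the groups did not overlap and the mutant was lower, where all filtered probe sets gave 8.9%. Of the 4 that fell, ANX2, AT2G21480 (BUPS2) and ACT12 passed the filter only through wild type. Their geometric means in the mutant were 16, 19 and 29.7, under the lowest mean that the filter kept, 34.4. The counts of this list are thus set in part by the filter. None of the 5 tapetum regulators, 2 sepal, petal and carpel markers or 2 photosynthesis markers was called. The microspore and pollen markers, with 11 probe sets for 30 listed genes, summed to between 483 and 4573 on mutant arrays and between 9958 and 14540 on wild-type arrays. Their levels in the mutant were uneven. ANX1 and ANX2 alone were at the floor on all mutant arrays, and ACT11 and AGL66 stood at 60.1% and 53.2% of wild type. On mutant replicate 4 the probe set shared by VGD1 and VGDH1 read 2514, and AT5G45880 read 1426. On the wild-type arrays the shared probe set ran from 5743 to 8111 and AT5G45880 from 3215 to 4987. Whether these levels match the labelled anther stages was not tested. Relative to the wild-type mean, the median of the microspore and pollen markers on the log2 scale was -2.14, -1.45 and -2.58 on the mutant arrays. For UGT78D2 the same values were -1.36, -1.70 and -1.46, and for SDT they were -1.02, -1.20 and -1.17. On the scaled values, replicate 4 was the mutant array closest to wild type for the pollen markers, AT5G28470 and AT5G54010. It was the furthest from wild type for UGT78D2, SDT, CHIL, SHT and DFR. For UGT78D2 this order rested on the scaling, since the values as deposited were 215, 182 and 171 on the mutant arrays. The order of these single arrays was not tested. The tapetum regulators summed to between 2144 and 5489 in the mutant and between 1700 and 1757 in wild type, from 7 of 13 genes. AMS, the brightest of the 7, ran from 1173 to 3359 in the mutant and from 774 to 863 in wild type. Only SPL of the 7 was lower in the mutant, with a log2 difference of -0.04. The photosynthesis markers LHCB4.1 and RCA summed to between 807 and 1171 in the mutant and between 478 and 812 in wild type. The sepal, petal and carpel markers, 3 of 8, summed to between 177 and 214 in the mutant and between 161 and 181 in wild type. The sums of these last 2 lists overlapped between the genotypes. The part of these markers in the differences of the 3 genes was not tested.

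**Figure D3:**
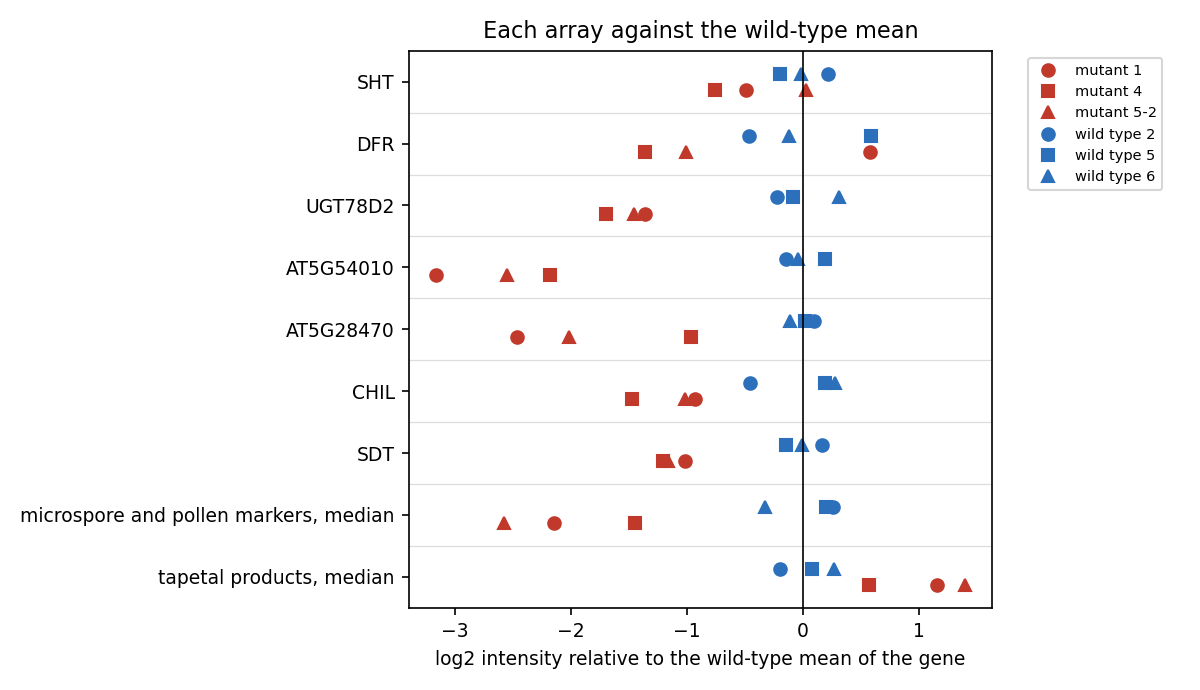
Log2 intensity of each array relative to the gene's wild-type mean, for SHT, DFR, UGT78D2 and 4 pathway genes, with the median of the microspore and pollen markers and of the tapetal products; red points are mutant arrays, blue points wild-type arrays, and shapes are replicates. On these scaled values mutant replicate 4 (red squares) is nearest to wild type for AT5G54010, AT5G28470 and both marker medians. It is furthest from wild type for the other genes, which for UGT78D2 does not hold on the values as deposited.

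The probe sets whose intensity ran most like each gene over the 6 arrays were found among the 8428 of other genes that passed the filter with 1 gene each. For UGT78D2 they were AT4G20880, AT4G04760 and AT5G60070, with Pearson's r of 0.983, 0.978 and 0.976. For SHT they were AT1G69523, AT3G27420 and AT5G28740, with r from 0.988 to 0.997. For DFR they were AT5G08510, AT3G22540 and AT3G45460, with r from 0.980 to 0.989, out of 8429. These values describe 6 arrays that fall into 2 genotypes, which all the probe sets share. Of the 3 mutant arrays, AT5G60070 was at the floor on all 3, AT4G20880 on 2 and AT3G22540 on 1. The 3 probe sets most like UGT78D2 were lower in the mutant, with log2 differences from -2.36 to -1.87. Those most like SHT and DFR differed by -0.67 to -0.23 and were not called. Both follow from the choice by likeness over these same arrays and are no separate result. AT5G60070 and AT4G20880 passed the filter only through wild type. Their geometric means were 16 and 18.1 in the mutant and 82.3 and 65.8 in wild type, and the filter kept means from 34.4.

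**Figure D4:**
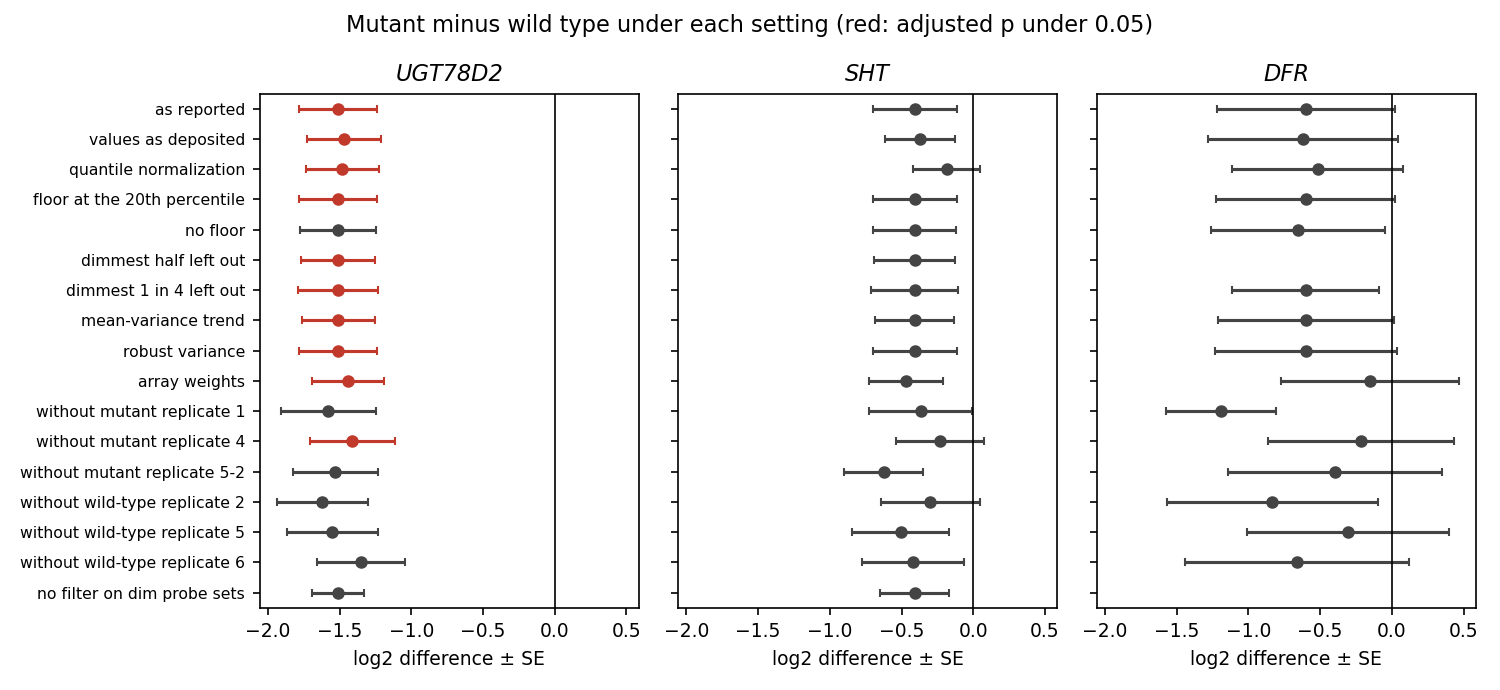
Log2 difference between mutant and wild type, with its standard error, for UGT78D2, SHT and DFR under each processing setting; red marks an adjusted p under 0.05. UGT78D2 stays between -1.62 and -1.35, while SHT runs from -0.62 to -0.19 and DFR from -1.19 to -0.15.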

How the data were processed

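Biotin-labelled anther RNA was hybridised to 6 Affymetrix arrays, 3 per genotype, and the labels call the replicates biological. No label says that they were grown apart, so p-values may reflect technical spread only. The authors deposited linear intensities, as their range shows, with 1 value for a probe set on an array. After 2% of values at each end are trimmed, every deposited array has a mean intensity of 150.01. No source used here gives the software or summary method, and detection calls were not used. The number of arrays limits the precision.

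Array medians differed by 0.323 on the log2 scale, so each array was multiplied by 1 factor (0.897 to 1.12) to a common median. Values were raised to a floor of 16, which held 19.0% to 22.0% of probe sets per array, and log2 transformed. The 64 control probe sets were left out. Tests were two-sided, from the lmFit and eBayes functions of limma 3.58.1 in R 4.3.3, with exact permutation tests for single genes. The limma tests, with and without the filter, were run on simulated data, and the permutation tests were not. Of 22746 probe sets 13513 had 1 gene, 13436 of these matched to RefSeq, 503 had several genes and 8730 are unnamed here.

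The genes, lists and tests were chosen with earlier results of these data known. From lists of up to 6 measured genes all were named, and from the longer list the called genes and 4 others with the smallest unadjusted p. Alternatives were the scaling, the floor, the filter, the variance model, array weights (statmod 1.5.0) and leaving out each array. The files name no genome build, and neither coordinates nor sequences are given.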

Additional observations from a re-analysis of the deposited data

How the results depend on the processing

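SHT and DFR kept a negative difference and stayed short of the threshold under every alternative run, 16 for SHT (from -0.62 to -0.19) and 14 for DFR (from -1.19 to -0.15). UGT78D2 stayed negative in all 16 and passed in 9. It missed the threshold with no floor (-1.51, limma adjusted p = 0.0517), without a filter (-1.51, 0.123) and in 5 of 6 tests that left out an array (-1.62 to -1.35, adjusted p from 0.039 to 0.105 over the 6). The filtered test called 311 probe sets. It called 141 on values as deposited, 194 after quantile normalization, 70 with no floor, 527 with a mean-variance trend, 650 with array weights, 3 without a filter and 43 to 535 when an array was left out. The pathway count of 3 became 1 with no floor, 5 with a trend, 0 without a filter and 1 to 3 when an array was left out. AT5G54010 passed in 15 of 16 alternatives, AT5G28470 in 6, SDT in 3 and CHIL in 1. The causes were not tested. Small uncalled differences changed sign. BAN was -0.18 with no floor, UGT78D1 0.0101 on deposited values, AT3G25570 -0.14 with array weights, AT4G13840 0.0707 after quantile normalization and CHAT -0.36 with no floor. With an array left out, BAN ran from -0.0614 to 0.131, UGT78D1 from -0.379 to 0.312, AT3G25570 from -0.424 to 0.324, UGT84A3 from -0.0495 to 0.358, UGT84A4 from -0.101 to 0.393, AT4G13840 from -0.0649 to 0.0221 and AT3G23840 from -0.64 to 0.0284. The stricter of the planned filters gave no value for DFR. No paired analysis was possible because the genotypes share fewer than 2 replicate numbers. Signal over background could not be judged, since detection calls were not used.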
